A study of Mus musculus with 10 samples.

Results

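The motile cilium and axonemal dynein genes of the mouse were followed through 10 RNA-sequencing libraries of utricular supporting cells. Members were all protein-coding genes whose symbol begins with Cfap, Dnah, Dnaaf or Dnai and a digit, or with Rsph or Drc, together with Ccdc39 and Ccdc40. The last of these Dna prefixes matched no symbol of the annotation. The rule took 63 of 21695 protein-coding genes and used no measured value. The motile axoneme is a cylinder of microtubule doublets around a central apparatus. Outer and inner rows of dynein motors, built around the heavy chains that Dnah genes encode, slide the doublets against each other. Radial spokes and nexin links regulate that sliding, and cytoplasmic assembly factors help to assemble the motors. Supporting cells of the inner ear carry a primary cilium, which lacks this machinery, whereas vestibular hair cells bear a kinocilium that is built on a motile type of axoneme.

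The cells came from utricles of Lfng-EGFP reporter mice at postnatal day 21, were kept in culture and were sorted for GFP. All groups therefore share the reporter, explant culture and 0.1% DMSO. Treated explants also received 10 µM TRULI, an inhibitor of the Lats kinases of the Hippo pathway. They were harvested after 5 days, or after 5 further days with neither compound nor vehicle, called day 10. The labels name 3 DMSO and 3 TRULI libraries at day 5 and 2 of each at day 10. Nothing in the labels ties libraries to separate animals, so p-values measure the spread between these libraries.

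The labels and the names of the deposited tables disagree for 4 libraries, so each library is given a short name here. C1, C2 and C3 were DMSO day 5, and W1 and W2 were TRULI day 10 after withdrawal, by both sources. T3 was TRULI day 5 by both sources. X1 and X2 were labelled TRULI day 5 but deposited under the name of DMSO day 10. Y1 and Y2 were labelled DMSO day 10 but deposited under the name of TRULI day 5. Comparisons follow the labels, and the grouping by deposited name is given beside them. The summed CPM of 7 Yap targets, which report on Lats inhibition, was 316 to 464 in the controls, 148 and 88.7 in X1 and X2, 1374 in T3, 1187 and 1279 in Y1 and Y2, and 279 and 72.4 in W1 and W2. T3, Y1 and Y2 thus stood together and X1 and X2 did not stand with T3. The summed CPM of 11 cell-cycle genes was 228 in T3, 746 and 474 in Y1 and Y2, and 60.8 to 121 in the other 7 libraries.

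The 10 tables held 2463872 to 6255149 expected counts each. A limit of 3 counts, the most that a count of 0 allows, was worth 0.480 to 1.22 CPM (counts scaled to library size) by library, for counting error only. Levels of single libraries are CPM with trimmed-mean scaling over all 10 libraries, and levels of different genes are compared only in FPKM, which corrects for length. Of the 63 members, 37, 38 and 42 had more than 3 counts in C1, C2 and C3. There were 25 and 17 in X1 and X2, 50 in T3, 54 and 41 in Y1 and Y2, and 46 and 25 in W1 and W2. X1 was the deepest library. The mitochondrial transcript mt-Rnr2 held 13.0% to 26.4% of counts in C1 to C3, T3, Y1 and Y2 and 1.45% to 2.53% in X1, X2, W1 and W2. The part of this difference in the comparisons that follow was not tested.

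**Figure D1:**
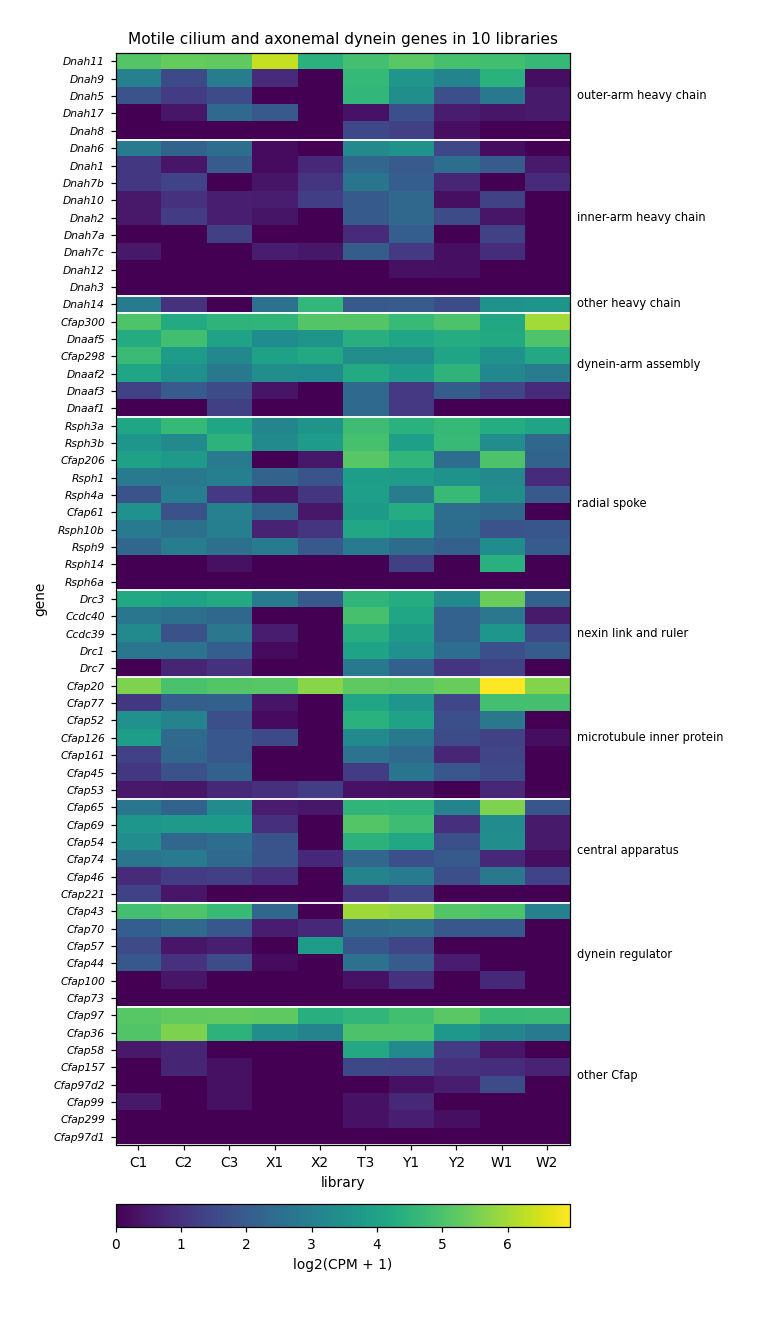
Level of each of the 63 members (rows, grouped by role) in each library (columns), as log2(CPM + 1), with C1 to C3 DMSO day 5 and W1 and W2 TRULI day 10. Cfap20, Cfap97, Cfap300 and Dnah11 are bright in all columns, while most spoke, link and central-apparatus rows are dark in X1, X2 and W2 and bright in T3 and Y1.

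The members were divided by where they were detected. In all 10 libraries 13 of them had more than 3 counts: Cfap20, Cfap36, Cfap97, Cfap298, Cfap300, Dnaaf2, Dnaaf5, Dnah11, Drc3, Rsph1, Rsph3a, Rsph3b and Rsph9. Another 43 passed that level in 1 to 9 libraries and 7 in none, of which Cfap73, Cfap97d1, Dnah3 and Rsph6a had no count anywhere. This division was made on the levels and is a description. The summed level of the 13 was 295, 283 and 249 CPM in C1 to C3, 249 and 202 in X1 and X2, 298 in T3, 264 and 275 in Y1 and Y2, and 324 and 251 in W1 and W2. The summed level of the other 50 was 182, 143 and 141 CPM in C1 to C3 and 31.5 and 46.0 in X1 and X2. It was 475 CPM in T3, 364 and 142 in Y1 and Y2, and 287 and 71.0 in W1 and W2. The sum of the 13 thus ran from 202 to 324 CPM. Its single genes varied more, and the highest library over the lowest was 1.97 for Cfap97, 7.46 for Cfap36, 14.3 for Drc3 and 17.1 for Rsph1. The sum of the other 50 ran from 31.5 to 475 CPM and differed widely between Y1 and Y2 and between W1 and W2.

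**Figure D2:**
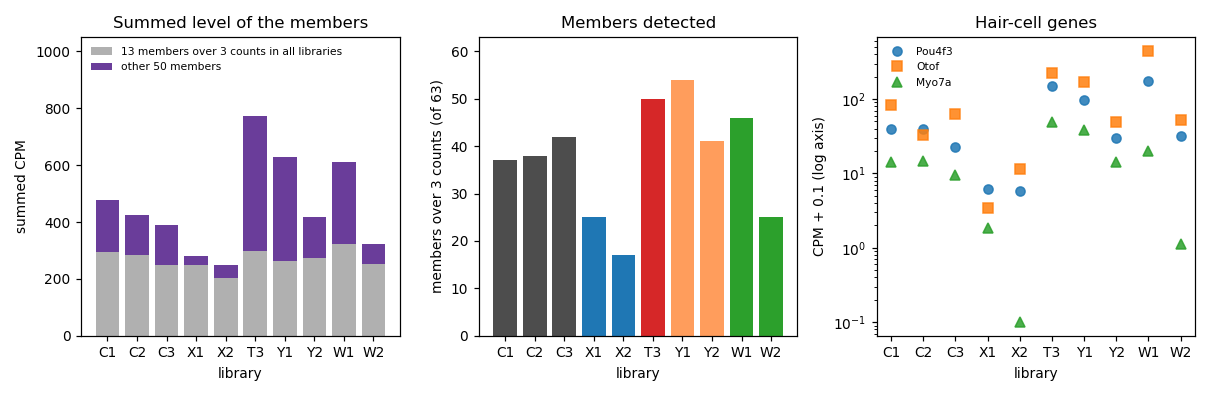
Left, summed CPM of the 13 members over 3 counts in all libraries (grey) and of the other 50 (purple). Middle, members with more than 3 counts. Right, CPM + 0.1 of Pou4f3, Otof and Myo7a on a log axis. The purple part ranges from 31.5 CPM in X1 to 475 in T3, and Pou4f3 and Otof are lowest in X1 and X2.

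The summed level of 23 hair-cell genes was 396 to 642 CPM in the controls, 410 and 503 in X1 and X2, 1362 in T3, 981 and 488 in Y1 and Y2, and 1482 and 532 in W1 and W2. The sum in X1, X2, Y2 and W2 thus lay within the range of the controls, and that in T3, Y1 and W1 above it. Single genes of the list differed from its sum. Pou4f3, a transcription factor of hair cells, was at 39.6, 39.1 and 22.3 CPM in C1 to C3, 6.1 and 5.7 in X1 and X2, 150 in T3, 96.1 and 29.6 in Y1 and Y2, and 174 and 31.5 in W1 and W2. Otof, which encodes the synaptic protein otoferlin, was at 32.5 to 82.7 CPM in the controls, 3.3 and 11.5 in X1 and X2 and 49.3 to 445 in the other libraries. Between 9 and 21 of the 23 had more than 3 counts. The part of hair cells in the levels of cilium genes was not tested. Fewer cells of a type and less RNA per cell cannot be told apart in such bulk libraries.

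Levels of 13 supporting-cell markers were read, and all had more than 3 counts in every library. Their sum was 15497 to 18698 CPM in the controls and 9325 to 12746 in the others. At that level, more than 3 counts was a weak check of identity. By the rule for calls given below, 2 of the 13 were lower in X1 and X2 than in the controls and 4 in W1 and W2. Of the 13, 0 were called higher. Shares of protein-coding genes called were 8.17% and 8.69% lower and 10.5% and 11% higher. Lfng itself, the gene that drives the sorted reporter, was at 506 to 563 CPM in the controls, 63.9 and 21.2 in X1 and X2, 310 in T3, 548 and 290 in Y1 and Y2, and 100 and 66.1 in W1 and W2. Of 5 muscle genes, only Myod1 had more than 3 counts in any library. It was at 34.1 and 89.1 CPM in X1 and X2 and at 14.4 and 48.2 in W1 and W2, and at most 0.4 elsewhere. The part of these differences in the results that follow was not tested.

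By FPKM, Cfap20 was the most abundant member, with a mean of 49.2 over the libraries. Its product sits inside the doublet at the junction of the tubules and is also found in primary cilia. It was followed by Cfap300 at 25.2 FPKM and Cfap298 at 18.2, both factors for assembling dynein arms, and by Cfap36 at 19.8, whose product binds the small GTPase Arl3. Cfap43, which helps to tether an inner dynein arm, had a mean of 16.0 and Cfap77, a protein of the doublet lumen, 13.5. The spoke genes Rsph3b and Rsph3a had means of 13.0 and 11.3 FPKM; they are close paralogs whose reads could be divided wrongly between them. Drc3 of the nexin link stood at 11.3 FPKM, and the spoke genes Rsph1 and Rsph9 both at 9.8. Cfap61 reached 10.3 FPKM only through 58.6 in Y2, where it had few counts assigned at a short effective length, and lay between 0 and 11.9 in the other 9 libraries.

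Most heavy chains were scarce. By FPKM, Dnah11, an outer-arm heavy chain, had a mean of 5.36 over the libraries, followed by Dnah14 at 3.95, Dnah9 at 1.61 and Dnah7b at 1.14. Dnah14 was above Dnah11 in X2, W1 and W2, at 12.3, 6.61 and 6.22 FPKM. Dnah11 was at 33.2, 38.5 and 37.4 CPM in C1 to C3, 79.4 and 20.8 in X1 and X2, 28.1 in T3, 35.0 and 29.3 in Y1 and Y2, and 27.8 and 24.0 in W1 and W2. It overlaps Cdca7l on the other strand of the genome, as Dnah14 does Lbr and Cfap97 does Snx25. Further members overlap other genes too, such as Cfap43 with Gsto1 and Gsto2, and Rsph10b with Pms2 on the same strand. Whether strand was used in counting is not given in the sources used here. Dnah9 and Dnah5, which pair in the outer arm, varied with the library instead. Dnah9 was at 7.2, 2.0 and 6.7 CPM in C1 to C3, 0.8 and 0 in X1 and X2, 24.4 in T3, 11.4 and 7.8 in Y1 and Y2, and 20.9 and 0.2 in W1 and W2. Dnah5 was at 1.3 to 2.4 CPM in the controls, 0 in X1 and X2, 23.4 in T3, 9.9 and 2.2 in Y1 and Y2, and 5.9 and 0.4 in W1 and W2. Of 9 inner-arm heavy chains, at most 7 had more than 3 counts in a library, in Y1. Dnah11, Dnah14, Dnah9, Dnah7b and Dnah5 were outside the rule for named genes and were chosen after their values were seen.

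Whether TRULI changed these genes at day 5 was asked with edgeR's quasi-likelihood test, calling a gene where its p, adjusted by Benjamini-Hochberg over all genes tested, was under 0.05 and its log2 fold change lay beyond 1 in size. By label (X1, X2 and T3 against C1 to C3), 31 members passed the filter on low counts and 0 were called in either direction. The background was 0.00945% of protein-coding genes called higher and 0% lower. At an unadjusted p under 0.05 there were 0 members, against 13.7% of protein-coding genes, and DESeq2 called 0 of 58, against 1.37% higher and 0.394% lower. The median log2 fold change of the members was 0.08, against 0.04 over protein-coding genes. This group joined libraries that differed widely. Without T3, that is with X1 and X2 alone, 12 members were called lower, against 8.17% of protein-coding genes.

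By deposited name (T3, Y1 and Y2 against C1 to C3), 36 members were tested and again 0 were called, where 2.09% of protein-coding genes were called higher and 0.992% lower. Of the 36, 27 had a positive log2 fold change, which is 75.0%, against 51.7% of protein-coding genes, and the median was 0.64 against 0.02. At an unadjusted p under 0.05 there were 8 members, or 22.2%, against 16.4% of protein-coding genes, and DESeq2 called 3 of 59 higher, against 2.59%. Replicate numbers paired these libraries. With replicate number as a block in the edgeR fit, 9 of the 36, or 25%, had an unadjusted p under 0.05, against 23.8%. In that fit 0 members were called, against 4.19% of protein-coding genes higher and 1.93% lower. Rsph4a, a protein of the spoke head, was at 2.4, 6.9 and 1.2 CPM in C1 to C3 and at 14.2, 6.7 and 24.9 in T3, Y1 and Y2. The groups overlapped, and its log2 fold change was 2.16 ± 0.66 (SE, 3 libraries a group), with an edgeR adjusted p of 0.121. Cfap65, of the central apparatus, was at 5.6, 3.6 and 9.2 CPM in the controls and at 22.6, 22.1 and 7.8 in T3, Y1 and Y2, a log2 fold change of 1.51 ± 0.50 (adjusted p = 0.155, edgeR). When Y2 was left out, 7 of 43 members were called higher, against 2.19% of protein-coding genes. When C1, C2, C3, T3 or Y1 was left out instead, 0 members were called higher, against 0.34% to 2.04%. Rsph4a was outside the rule for named genes.

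At day 10, 0 members were called by either grouping. By label (W1 and W2 against Y1 and Y2), 36 were tested with a median log2 fold change of -1.03, where protein-coding genes stood at 0.01, and 0.985% of the latter were called higher and 1.06% lower. Of the 36, 5 had an unadjusted p under 0.05, or 13.9%, against 24.6% of protein-coding genes, and DESeq2 called 1 of 59 lower, against 3.7%. The count rested on the pair W1 and W2. Without W1, 18 of 43 members were called lower and 1 higher, against 13% and 11.5% of protein-coding genes. Without W2, 5 of 45 were called higher and 1 lower, against 9.93% and 8.38%. In those fits the lone library was assumed to vary like the other group. By deposited name (W1 and W2 against X1 and X2), 23 members were tested and 6 had an unadjusted p under 0.05, or 26.1%, against 4.52% of protein-coding genes. DESeq2 called 3 of 53 higher, against 0.287%. The median log2 fold change was 0.86, and 0% of protein-coding genes were called in either direction. The difference between the effects of TRULI at day 10 and at day 5 was tested for 46 members. It called 0 under both groupings, as it did for 0% of protein-coding genes.

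**Figure D3:**
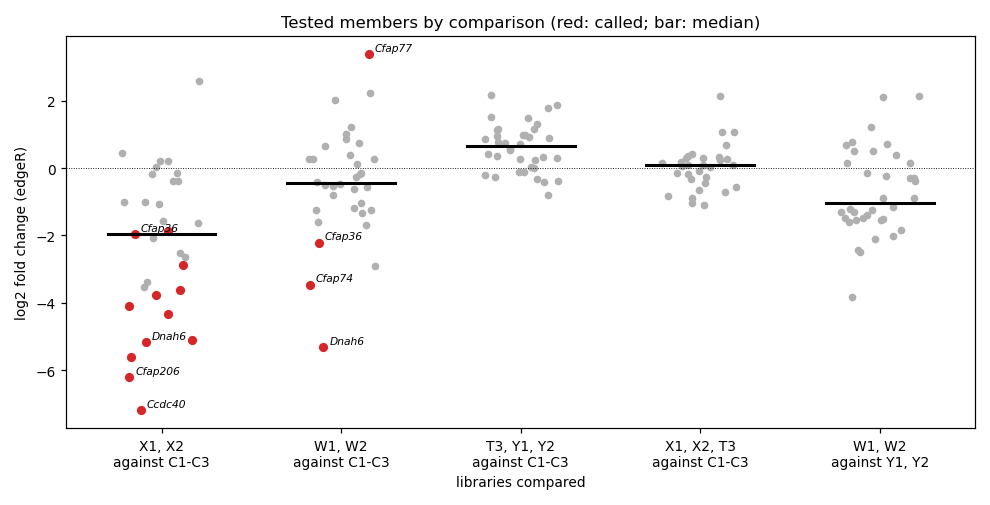
Log2 fold change (edgeR) of each tested member in 5 comparisons named by their libraries; red points were called, grey points were not, and bars are medians. The medians are -1.94 for X1 and X2 and -0.45 for W1 and W2 against the controls; fitted values of genes with 0 to 3 counts in a group depend on the prior count.

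The largest set of called members came from X1 and X2 against C1 to C3, which is DMSO day 10 against DMSO day 5 by deposited name. Here 12 of 31 tested members were called lower and 0 higher, where 8.17% of protein-coding genes were called lower and 10.5% higher. Members near 0 counts in X passed the filter on low counts through the controls, so they could be called lower but not higher. The same limit holds wherever a gene was near 0 in a group of a comparison. The count of 12 is thus a description and not a test of these genes as a set. The median log2 fold change of the members was -1.94, and 5 of the 31, or 16.1%, were positive, against 48.1% of protein-coding genes. By role, the 12 comprised all 4 tested genes of the nexin link and ruler (Drc1, Drc3, Ccdc39 and Ccdc40) and 2 of 4 of the central apparatus (Cfap65 and Cfap69). They also took in 2 of 7 spoke genes (Cfap206 and Rsph10b), the inner-arm chain Dnah6, Cfap52 of the doublet lumen, Cfap43 and Cfap36. None of the 4 tested assembly factors was called, and their median log2 fold change was -0.06.

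Ccdc40 forms with Ccdc39 the ruler that sets the repeat along the doublet. Ccdc40 (chromosome 11, 119228572 to 119265238, GRCm38) was at 5.6, 4.9 and 4.0 CPM in C1 to C3 and at 0 in both X1 and X2. With 0 counts against 45 it was at least 14.4-fold lower, by a limit of 3 counts over both libraries (edgeR adjusted p = 0.0143). Ccdc39 was at 8.8, 2.3 and 5.7 CPM in the controls and 0.47 and 0 in X1 and X2. Its 3 counts against 52 gave a ratio of controls to X of 16.6, with a 95% counting interval of 5.38 to 83.1 (adjusted p = 0.0355, edgeR). The groups did not overlap for either gene. In T3 the same genes stood at 29.7 and 19.7 CPM, above all other libraries.

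Cfap206, which docks a radial spoke, was at 14.8, 12.2 and 6.4 CPM in C1 to C3 and 0 and 0.36 in X1 and X2. The single count against 100 gave a ratio of 95.8 (counting interval 16.8 to 3820; edgeR adjusted p = 0.0119). It was at 34.7 CPM in T3, 22.6 and 4.7 in Y1 and Y2, and 31.3 and 3.7 in W1 and W2. W1 therefore lay above the controls and W2 below them. Cfap69 was at 11.6, 12.5 and 12.9 CPM in the controls and 0.94 and 0 in X1 and X2, a log2 fold change of -4.34 ± 0.88 (adjusted p = 0.0153, edgeR). Cfap69 was also low in Y2, at 0.90 CPM, and in W2, at 0.41, against 33.4 in T3 and 26.8 in Y1. Cfap43 was at 28.4, 31.6 and 24.5 CPM in the controls and 3.9 and 0 in X1 and X2, a log2 fold change of -3.63 ± 0.85 (adjusted p = 0.0226, edgeR).

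Cfap36 and Drc3 were the called genes with more than 3 counts in all 10 libraries. Cfap36 was at 32.4, 47.0 and 21.6 CPM in C1 to C3, 9.9 and 7.5 in X1 and X2, 31.3 in T3, 30.8 and 12.1 in Y1 and Y2, and 8.2 and 6.3 in W1 and W2. Both X libraries and both W libraries lay below every control. Its log2 fold change in X was -1.94 ± 0.48 (edgeR adjusted p = 0.0258). The remaining called genes, Cfap52, Cfap65, Dnah6, Drc1, Drc3 and Rsph10b, had adjusted p of 0.0175 to 0.0385 by edgeR. The count of 12 rested on single libraries. It was 2 of 30 without C1, 0 of 28 without C2 and 6 of 28 without C3, where 1.43%, 0.00941% and 2.3% of protein-coding genes were called lower. It was 15 of 37 without X1 and 8 of 37 without X2, where 17.5% and 5.42% were. DESeq2 called 15 of 56 lower, against 8.03%.

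By label, DMSO day 10 against DMSO day 5 compares Y1 and Y2 with C1 to C3, and there 0 of 37 members were called, where 2.04% of protein-coding genes were called higher and 0.449% lower. At an unadjusted p under 0.05 there were 2 members, or 5.41%, against 15% of protein-coding genes, and DESeq2 called 0. Without Y1, 1 of 38 was called lower, against 0.232%. The median log2 fold change was 0.32, and 26 of the 37, or 70.3%, were positive, against 50.5% of protein-coding genes. Of the 12 genes called in X, 10 had the opposite sign here. By label the median was 0.20 to 0.50 when a control was left out, 1.03 without Y2 and -0.29 without Y1. The direction after 5 further days without treatment thus depends on which source names the libraries. By label it also depends on Y1. By deposited name Y1, Y2 and T3 are all TRULI day 5. Their summed Yap targets were 1187, 1279 and 1374 CPM, against 148 and 88.7 in X1 and X2.

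W1 and W2 against C1 to C3 is the comparison on which both sources agree: TRULI withdrawn for 5 days against DMSO at day 5, so treatment and days in culture cannot be told apart. Of 34 tested members 1 was called higher and 3 lower, where 11% and 8.69% of protein-coding genes were called. The median log2 fold change of the members was -0.45, and 13 of the 34, or 38.2%, were positive, against 50.5% of protein-coding genes. The lone increase was Cfap77 (chromosome 2, 28926949 to 29055066). It was at 1.2, 3.3 and 3.5 CPM in C1 to C3 and at 28.3 and 28.9 in W1 and W2, with 16.3 in T3, 11.7 and 1.8 in Y1 and Y2, and 0.31 and 0 in X1 and X2. Both W libraries were above all 8 others. The log2 fold change was 3.38 ± 0.54 (adjusted p = 0.00827, edgeR), and it stayed between 3.06 and 3.67 when each library was left out, with edgeR adjusted p of 0.00233 to 0.046. Cfap77 was as high in W2 as in W1.

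The 3 members called lower in W were Cfap36, Cfap74 and Dnah6. Cfap36, with the values above, had a log2 fold change of -2.21 ± 0.48 (adjusted p = 0.0181, edgeR). Cfap74, of the central apparatus, was at 5.6, 6.2 and 4.2 CPM in the controls and 0.70 and 0.20 in W1 and W2, a log2 fold change of -3.46 ± 0.89 (adjusted p = 0.0298, edgeR). Dnah6 (chromosome 6, 73017606 to 73221651) was at 6.4, 3.6 and 4.7 CPM in the controls and 0.17 and 0 in W1 and W2. Its 1 count against 46 gave a ratio of 51.3 (counting interval 8.75 to 2068; edgeR adjusted p = 0.0169). Dnah6 was 8.7 CPM in T3 and 10.7 and 1.8 in Y1 and Y2. The groups did not overlap for these 3 genes. Leaving out C1 or C2 left 0 of 34 members called lower and leaving out C3 left 1 of 33, where 2.2%, 0.922% and 2.51% of protein-coding genes were called lower. Without W1, 15 of 37 were called lower, against 13.4%, and without W2, 7 of 40 were called higher, against 13%. In a fit of all 10 libraries by label, 0 members were called in this comparison, with an edgeR adjusted p of 0.153 for Cfap77, whereas by deposited name Cfap77 kept its call at 0.0125.

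TRULI day 10 against TRULI day 5 called 0 of 35 members by label (W1 and W2 against X1, X2 and T3), where 0% of protein-coding genes were called. At an unadjusted p under 0.05 there was 1 member, or 2.86%, against 3.03% of protein-coding genes, and DESeq2 called 0. By deposited name (against T3, Y1 and Y2), 2 of 44 were called lower, where 5.91% of protein-coding genes were called lower and 8.16% higher, and the median was -1.37. The called genes were Dnah6 and Cfap58, a gene of sperm flagella. Cfap58 was at 0.40, 0.66 and 0 CPM in C1 to C3, 0 in X1 and X2, 17.3 in T3, 8.7 and 1.3 in Y1 and Y2, and 0.35 and 0 in W1 and W2. Its 2 counts in W against 107 gave a ratio of 46.4 (counting interval 12.5 to 388; adjusted p = 0.0428, edgeR). Without T3, Y1 or W2 the count of lower members was 0, where 0.035% to 5.54% of protein-coding genes were called lower. It was 2 of 42 without Y2, against 1.71%, and 11 of 48 without W1, against 9.18%. Without W2, 2 of 49 were called higher, against 7.62%.

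Transcription factors of ciliogenesis were examined beside the members. Foxj1, the master regulator of motile ciliogenesis, was at 0.80, 0.99 and 2.2 CPM in C1 to C3, 0 and 0.36 in X1 and X2, 7.9 in T3, 11.7 and 9.2 in Y1 and Y2, and 1.0 and 0 in W1 and W2. T3, Y1 and Y2 were above the other 7 libraries. With those 3 as TRULI day 5, the log2 fold change against the controls was 2.77 ± 0.55 (adjusted p = 0.0234, edgeR). By label the same rise is that of DMSO day 10 over DMSO day 5 (Y1 and Y2), at 2.88 ± 0.64 (adjusted p = 0.0398, edgeR). With all 10 libraries in one fit, neither was called. The former was lost without C1, C2 or Y1, at edgeR adjusted p of 0.0705 to 0.12, and the latter without C1, C2, Y1 or Y2, at 0.0733 to 0.153. Foxj1 in W was lower than in T3, Y1 and Y2, with a log2 fold change of -4.05 ± 1.07 (adjusted p = 0.0415, edgeR), and this was lost without T3, Y1 or Y2, at 0.0942 to 0.137.

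Rfx2, a factor that binds X-box sites of ciliary genes, was at 4.4, 2.0 and 4.0 CPM in C1 to C3, 3.9 and 2.2 in X1 and X2, 2.4 in T3, 5.2 and 2.2 in Y1 and Y2, and 17.6 and 13.2 in W1 and W2. Both W libraries were above all others, a log2 fold change of 2.15 ± 0.57 over the controls (adjusted p = 0.0327, edgeR). Leaving out any control raised the adjusted p to between 0.0813 and 0.128. Rfx3 was at 23.3 to 35.2 CPM in the controls and 10.6 to 27.1 elsewhere and was not called. Rfx1, E2f4, E2f5 and Tfdp1 were expressed in all libraries and Rfx4 had at most 1 count. The program of multiciliated cells was near 0: Gmnc and Cdc20b had no count in any library, Mcidas, Ccdc78, Foxn4 and Trp73 had at most 2, and Ccno was at 0.45 to 6.8 CPM, highest in X2. Deup1 had at most 11 counts and Myb at most 14.

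**Figure D4:**
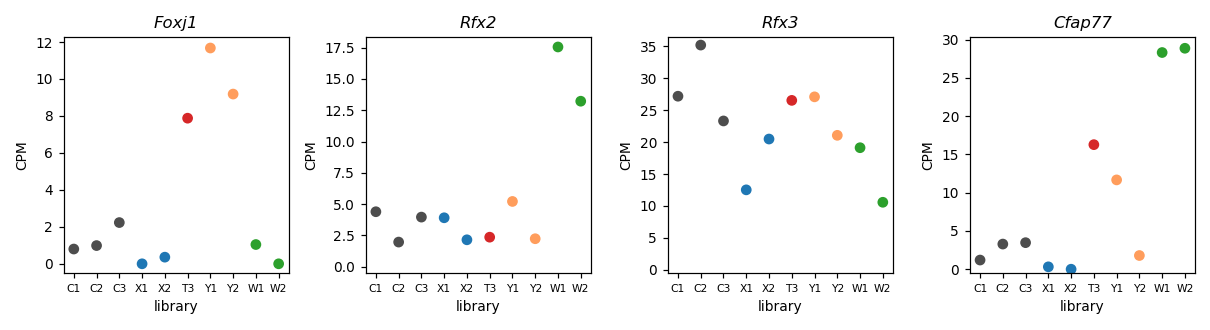
CPM of Foxj1, Rfx2, Rfx3 and Cfap77 in each library (grey C, blue X, red T3, orange Y, green W). Foxj1 is highest in T3, Y1 and Y2, at 7.9 to 11.7 CPM, while Rfx2 and Cfap77 are highest in W1 and W2.

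Other genes of cilia were read from fixed lists. Of 38 further axonemal genes, 19 were tested in X1 and X2 against the controls, and 7 were called lower and 0 higher, where 8.17% of protein-coding genes were called lower. Among them, Hydin of the central apparatus was at 6.0, 3.0 and 3.2 CPM in C1 to C3 and 0.16 and 0.36 in X1 and X2. In W1 and W2 against the controls, 2 of 22 were called higher (Ccdc65 of the nexin link and the light chain Dnali1) and 1 lower (the light chain Dnal1), where 11% and 8.69% of protein-coding genes were called. Ccdc65 was at 10.4, 11.8 and 11.4 CPM in the controls and 37.0 and 51.5 in W1 and W2. Of 9 further assembly factors, 1 of 6 tested was called lower in X (Zmynd10) and 1 of 8 in W (Ccdc103), against 8.17% and 8.69% of protein-coding genes called lower.

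The genes of intraflagellar transport and the BBSome, which serve primary cilia too, kept a summed level of 904 to 1103 CPM across the 10 libraries. Of 39 tested, 2 were called higher and 6 lower in X, where 10.5% and 8.17% of protein-coding genes were called. In W there were likewise 2 and 6, where 11% and 8.69% were. Ift74 was among the lower genes of both, at 12.8, 24.0 and 10.2 CPM in the controls, 0.31 and 0.36 in X1 and X2 and 1.2 and 0.41 in W1 and W2. Ift46 was among the higher genes of both, at 26.6 to 33.5 CPM in the controls, 81.1 and 58.2 in X and 64.3 and 102.7 in W. Of 17 tested hair-cell genes, 9 were called lower in X, Pou4f3 and Otof among them, against 8.17% of protein-coding genes. In X 0 were called higher, against 10.5%, though 5 of the 17 had a positive log2 fold change. In W 2 were called higher (Espn and Cabp2) and 0 lower, against 11% and 8.69%.

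Promoter sequence was read for members called in a comparison and for members detected in all libraries. RefSeq windows of GRCm38.p6, from 250 bases before to 50 after the start, were found for 51 of the 63 members, in 55 windows. The short X-box letters GTTGCC, on either strand, lay in 19 of 55 windows (34.5%) against 12.5% of all 32851 promoter windows. The paired form, GTNNCC and GGNNAC with 2 bases between them, lay in 6 of 55 (10.9%) against 1.88%. Cfap298 and Dnaaf5 held both, and in Cfap298 the letters overlap. The forkhead letters GTAAACA lay in 5.45% of member windows against 3.65%, and the TEAD letters GGAATG in 10.9% against 14.7%. These are matches of letters, not shown to be bound. The stretches around the paired form follow for a member that was higher in W, a member lower in X and a pair detected in all libraries, with the paired form in capitals, each read on its gene's strand from chr2:29055269-29055316 (minus strand), chr4:34730207-34730249 (minus strand), chr16:90935004-90935057 (minus strand) and chr5:139150197-139150234 (plus strand) in that order.
Cfap77: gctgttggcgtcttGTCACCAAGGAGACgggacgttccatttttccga
Cfap206: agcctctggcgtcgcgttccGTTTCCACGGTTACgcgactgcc
Cfap298: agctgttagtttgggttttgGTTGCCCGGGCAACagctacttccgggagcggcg
Dnaaf5: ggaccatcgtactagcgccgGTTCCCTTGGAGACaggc
The form ended 222 bases before the start in Cfap77, 9 in Cfap206, 174 in Cfap298 and 4 in Dnaaf5. It was present in genes that differed in their levels across the libraries, and Ccdc40, Cfap69 and Dnah6 did not hold it in these windows.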

How the data were processed

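RNA was sequenced from sorted supporting cells. The authors aligned reads with STAR to GRCm38 (mm10), and the deposited tables give expected counts per gene without normalization. The counting program is not given in the sources used here, which also name different library kits. Symbols and biotypes came from GENCODE M21, which matched 48349 of 48709 gene IDs. Expected counts were rounded and compared with edgeR 4.0.16 (quasi-likelihood test, filterByExpr, TMM, R 4.3.3), with p-values adjusted over all genes tested. FPKM used each table's effective lengths and the protein-coding total. DESeq2 1.42.0, other scaling, no filter, all 10 libraries in one fit, protein-coding genes only, replicate blocks, deposited names and each library left out were alternatives. Code was tested on simulated data.

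Members and lists were chosen with earlier results of these data known. Named genes were the 12 members with the highest mean FPKM, up to 10 called members with the lowest p per comparison, and the listed ciliogenesis and multiciliation factors. Replicate numbers were taken to pair libraries by deposited name at day 5, where deviations of same-numbered libraries correlated at 0.213 to 0.416. By label at day 5 they correlated at -0.207 to 0.062. In TRULI against DMSO at day 10 they correlated at 0.188 by label and 0.183 by deposited name. With the replicate block 0 members were called there by either grouping.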

Additional observations from a re-analysis of the deposited data

How the results depend on the processing

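Values are members called, or log2 fold changes of single members. TRULI against DMSO at day 5 kept 0 calls except by deposited name with DESeq2 (3 higher) or no filter (7 higher), and with a library left out 0 to 7 were higher and 0 to 12 lower. At day 10, no filter gave 2 higher and 1 lower by label and 4 and 1 by name, DESeq2 1 lower by label and 3 higher by name, and leaving out a library 0 to 5 higher and 0 to 18 lower. For TRULI day 10 against day 5, no filter and the replicate block each gave 1 higher by label. By name 2 were lower, and DESeq2 gave 2 higher and 6 lower, the fit of all 10 libraries 1 and 5, RLE size factors 1 and 2, no filter 3 and 11, the replicate block 3 lower, and leaving out a library 0 to 2 higher and 0 to 11 lower. For DMSO day 10 against day 5, no filter gave 2 higher by either source. By name 12 were lower, with DESeq2 15, in the fit of all 10 libraries 10, with RLE 12, with no filter 16 and with the replicate block 5. Leaving out a library gave 0 to 2 higher and 0 to 15 lower. For W1 and W2 against the controls, DESeq2 gave 2 higher, no filter 5 higher and 5 lower, and the fit of all 10 libraries 0 and 0 by label but 2 higher by name. Leaving out a library gave 1 to 7 higher and 0 to 15 lower. The difference of effects gave 1 call with no filter. The block also ended the calls of Foxj1 in TRULI day 10 against day 5 by name (edgeR adjusted p = 0.0663) and of Rfx2 in W1 and W2 against the controls (0.0884). It changed no other count of calls beyond 1.5 times. Causes were not tested, and a lone library was assumed to vary like the other group.

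Members reversed between DMSO day 10 and day 5 when grouped by deposited name: the log2 fold changes became -4.08 for Ccdc39, -7.19 for Ccdc40, -6.20 for Cfap206, -3.63 for Cfap43, -5.61 for Cfap52, -3.76 for Cfap65, -4.34 for Cfap69, -5.17 for Dnah6, -5.10 for Drc1 and -2.88 for Rsph10b, and with that name's replicate block -6.47 for Cfap206, -4.18 for Cfap43, -6.19 for Cfap52 and -4.53 for Cfap69. With a library left out by either source, the same comparison spanned -7.11 to 1.19 for Ccdc39, -7.28 to 1.73 for Ccdc40, -8.46 to 1.04 for Cfap206, -9.43 to 1.03 for Cfap43, -7.35 to 1.21 for Cfap52, -4.02 to 1.50 for Cfap61, -4.04 to 1.83 for Cfap65, -8.25 to 1.12 for Cfap69, -6.92 to 1.13 for Dnah6 and -6.85 to 1.17 for Drc1. TRULI against DMSO at day 5 spanned -4.08 to 1.55 for Ccdc39, -7.19 to 2.26 for Ccdc40, -6.20 to 1.40 for Cfap206, -3.63 to 1.09 for Cfap43, -5.61 to 1.47 for Cfap52, -3.76 to 1.94 for Cfap65, -4.34 to 1.30 for Cfap69, -5.10 to 1.49 for Drc1 and -2.88 to 1.36 for Rsph10b. At day 10 it spanned -2.51 to 6.75 for Cfap65 and -2.01 to 3.18 for Drc3. TRULI day 10 against day 5 spanned -2.67 to 5.85 for Cfap65, and W1 and W2 against the controls -2.23 to 1.26 for Drc3. Fitted values of genes with a group at 0 depend on the prior count. Depth limits the scarce members, since 7 of 63 had at most 3 counts in every library.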
